A study of Mus musculus with 6 samples.

Results

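Natural killer (NK) cells are innate lymphocytes that kill stressed, infected or transformed cells without prior sensitization, and the lung holds a large circulating pool of them. Their surface receptors, many encoded side by side in the NK gene complex on mouse chromosome 6, weigh activating against inhibitory signals. Once triggered, the cell releases granules in which perforin opens the target membrane and granzymes, a family of serine proteases, enter and start cell death. Classical dendritic cells (cDC) are a known source of the cytokines, interleukin-12 and interleukin-15 among them, that keep NK cells alive and active, and cytotoxic T cells share the granule proteins but not most of the receptors.

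The genes described here are 10 genes of NK cells and cytotoxic granules, taken by symbol from the 25965 genes listed for whole mouse lung. They are the receptors Ncr1, Klrb1c, Klrk1, Klra8 and Klre1, the transcription factor Eomes, and the granule genes Gzma, Gzmb, Prf1 and Nkg7. All 10 were found and all 10 passed the filter on low values, which left 16708 genes for testing. Bulk RNA sequencing was done on 6 lungs of ZBTB46 DTR chimera mice, in which the diphtheria toxin receptor marks cells that express Zbtb46, a transcription factor of cDC that lung endothelium also transcribes. The 3 DT mice received diphtheria toxin, first 40 ng per g body weight given 1 day ahead of hypoxia and then 8 ng per g at intervals of 3 days, with 3 doses in total. The 3 PBS mice received vehicle (phosphate-buffered saline). All 6 mice, DT and PBS, carried the receptor and spent 7 days in 10% oxygen, a challenge that raises pressure in the lung circulation. The sources used here do not give age, sex or the cells a chimera kept from its host, and the effect of losing cDC cannot be told apart from that of the toxin itself, since toxin-treated mice without the receptor are not among the samples.

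Depth was similar in the groups, with 16766386 to 18831937 reads in DT libraries and 18027303 to 19084657 in PBS libraries. The 10 genes together held 902 to 1375 reads per DT library and 1008 to 1858 per PBS library. One library stood apart from its group: PBS mouse 1 was the lowest PBS mouse for 9 of 12 cDC markers. Its Xcr1, a chemokine receptor of cDC, was at 4.55 RPM (a reads-per-million value), close to the DT mice with 6.50, 3.61 and 0.272 RPM, while PBS mice 2 and 3 had 17.3 and 20.5 RPM. The exceptions were Batf3, Tlr3 and Zbtb46 itself, which was highest in PBS mouse 1, with 87.2, 81.99 and 84.1 RPM in DT mice against 108, 99.8 and 89.1 RPM in PBS mice. The results on the 10 genes are therefore given with and without PBS mouse 1, which was singled out after its values were seen.

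The promoters of 4 of the genes are shown, chosen for the range of their fitted differences and of their spread between mice. Prf1 had the largest fitted difference and Gzmb the smallest. Klrk1 had the smallest limma p without PBS mouse 1, and Ncr1 the widest spread between mice. The sequences are from RefSeq (GRCm38.p6) and run from 250 bases before to 50 bases after each start, 5′ to 3′ on the strand of the gene. Capitals mark the 6 letters TGTGGT, a motif of RUNX transcription factors, or their reverse complement.
Prf1, chr10:61297586-61297885, plus strand: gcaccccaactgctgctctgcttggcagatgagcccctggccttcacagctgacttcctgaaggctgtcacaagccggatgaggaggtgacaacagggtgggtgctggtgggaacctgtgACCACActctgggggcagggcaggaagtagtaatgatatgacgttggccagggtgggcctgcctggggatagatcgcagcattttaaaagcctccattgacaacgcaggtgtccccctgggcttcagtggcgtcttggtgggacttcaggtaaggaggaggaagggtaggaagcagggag
Klrk1, chr6:129623815-129624114, minus strand: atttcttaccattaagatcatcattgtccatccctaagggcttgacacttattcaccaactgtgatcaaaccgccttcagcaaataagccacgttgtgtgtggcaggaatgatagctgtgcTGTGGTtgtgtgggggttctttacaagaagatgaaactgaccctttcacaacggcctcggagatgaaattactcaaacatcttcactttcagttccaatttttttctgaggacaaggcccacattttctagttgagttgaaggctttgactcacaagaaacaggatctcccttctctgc
Ncr1, chr7:4337465-4337764, plus strand: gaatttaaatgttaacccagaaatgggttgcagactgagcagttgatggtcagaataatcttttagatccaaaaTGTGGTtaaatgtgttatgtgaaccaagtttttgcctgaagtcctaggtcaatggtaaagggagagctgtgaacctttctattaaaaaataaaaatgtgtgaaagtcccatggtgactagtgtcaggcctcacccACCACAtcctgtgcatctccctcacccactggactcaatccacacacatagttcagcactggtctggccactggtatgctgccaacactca
Gzmb, chr14:56262285-56262584, minus strand: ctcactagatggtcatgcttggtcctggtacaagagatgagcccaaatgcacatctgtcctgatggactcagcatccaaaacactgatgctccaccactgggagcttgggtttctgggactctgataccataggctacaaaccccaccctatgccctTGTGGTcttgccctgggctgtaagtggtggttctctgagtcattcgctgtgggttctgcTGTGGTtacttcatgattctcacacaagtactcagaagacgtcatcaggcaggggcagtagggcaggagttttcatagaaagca

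With the first promoter listed for each gene, a RUNX motif was present in 8 of 10, against 16.8% of 32851 RefSeq promoters of the same length. It lay 130 bases before the start in Prf1, 129 in Klrk1, 176 and 41 in Ncr1, and 93 and 34 in Gzmb, on either strand. The motif of T-box factors such as Eomes, spelled GTGTGA, was in 4 of 10 promoters against 14.5% of all. The ETS motif GGAAGT was in 2 of 10 against 23.8%, and the STAT5 motif spelled TTCNNNGAA was in 2 of 10 against 8.3%. All motifs were read on both strands. Ncr1, Klre1 and Klra8 have a second promoter in RefSeq, and that of Klre1 holds no RUNX match while its first does. RUNX3 and the T-box factors T-bet and Eomes are established regulators of NK cell genes, but a match of letters is not a binding site.

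None of the 10 genes passed the test of DT against PBS. All 10 had a lower fitted mean in toxin-treated lungs, with log2 fold changes between -0.50 for Prf1 and -0.11 for Gzmb, and the groups overlapped for every one of them. In 9 of the 10 genes, the exception being Ncr1, PBS mice 2 and 3 lay above all 4 other mice, DT and PBS mouse 1 together, an order that was singled out after the values were seen. Of all genes tested, 5.95% had that order and 9.58% the opposite one. In whole lung, fewer NK cells and less RNA per cell cannot be told apart.

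**Figure D1:**
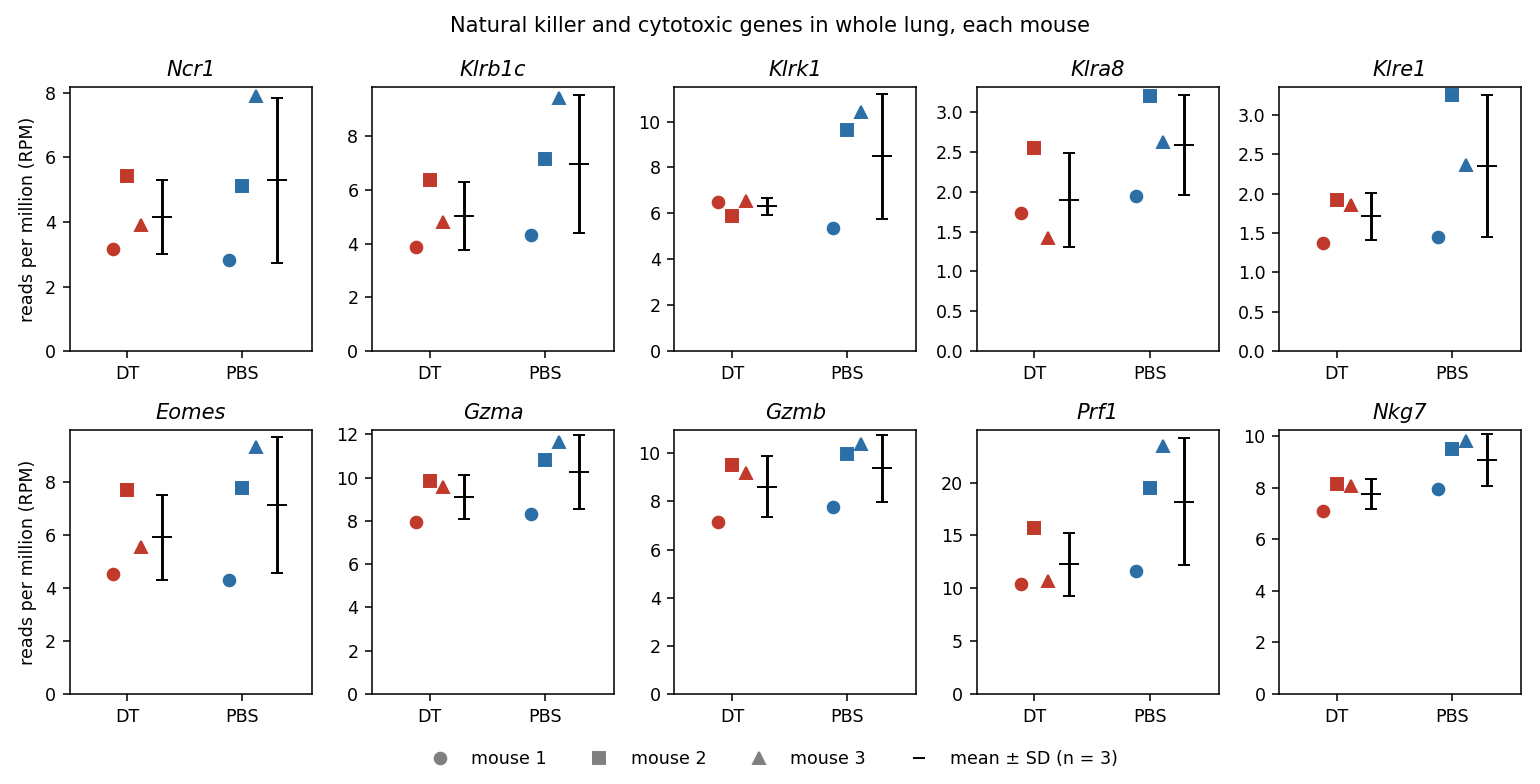
RPM (vertical axes, from 0) of the 10 genes in each mouse, DT in red left of PBS in blue, with symbols for the mouse number and the mean ± SD over 3 mice in black. PBS mouse 1 (blue circle) lies within or below the range of the DT mice in all 10 panels, and PBS mice 2 and 3 are the highest in every panel but that of Ncr1.

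Ncr1 encodes NKp46, an activating receptor largely restricted to NK cells and related innate lymphocytes (ENSMUSG00000062524, mm10 chromosome 7, 4337724 to 4345164). It stood at 3.16, 5.42 and 3.92 RPM in DT mice 1, 2 and 3, against 2.83, 5.12 and 7.91 RPM in PBS mice 1, 2 and 3. PBS mouse 1 was the lowest of the 6 and PBS mouse 3 the highest, so the DT values lay inside the PBS range. The log2 fold change of DT over PBS was -0.22 ± 0.30 (SE; 95% interval -0.91 to 0.47; limma adjusted p = 0.886), and it was 0.07 without PBS mouse 3. Klrb1c encodes NK1.1, the antigen by which NK cells of C57BL/6 mice are commonly sorted (ENSMUSG00000030325, chromosome 6, 128778485 to 128789215). It had 3.88, 6.37 and 4.79 RPM in DT mice and 4.33, 7.14 and 9.43 RPM in PBS mice. Only PBS mouse 1 of the PBS group fell in the DT range. The difference was -0.37 ± 0.26 (-0.96 to 0.22; adjusted p = 0.730). Of the 50-base stretches in its annotated transcripts, 16.98% also occur in another gene, so its reads are partly uncertain. Klrb1c also shares 413 of its 2961 exonic bases with Gm44511, a protein-coding gene annotated on the same strand.

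Klrk1 encodes NKG2D, which recognizes stress-induced ligands on target cells (ENSMUSG00000030149, chromosome 6, 129610323 to 129623864). The 3 DT mice were nearly alike at 6.50, 5.89 and 6.53 RPM, against 5.38, 9.65 and 10.4 RPM in PBS mice. The DT mice lay between PBS mouse 1 and the other PBS mice. Its log2 fold change was -0.33 ± 0.21 (-0.82 to 0.16; adjusted p = 0.709). Klra8 encodes Ly49H, an activating receptor for a mouse cytomegalovirus protein (ENSMUSG00000089727, chromosome 6, 130115226 to 130129898), and Klre1 a lectin-like receptor chain found on NK cells (ENSMUSG00000050241, chromosome 6, 129577893 to 129585824). Klra8 had 1.73, 2.55 and 1.41 RPM in DT mice and 1.94, 3.20 and 2.62 RPM in PBS mice. Klre1 had 1.37, 1.91 and 1.85 RPM in DT mice and 1.44, 3.25 and 2.36 RPM in PBS mice. These were the least covered of the 10, with 26 to 60 and 23 to 61 reads per library, and 1.37 RPM of Klre1 rests on 23 reads with an exact Poisson 95% interval of 0.87 to 2.06 RPM, which covers counting error only. Their log2 fold changes were -0.31 ± 0.20 and -0.28 ± 0.22, with adjusted p = 0.707 and 0.769 (limma). Klra8 has close copies in the same cluster, and 33.1% of its 50-base stretches occur in another gene, Klra9 and Klra10 among them.

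Eomes, the T-box factor that sets the identity of circulating NK cells (ENSMUSG00000032446, chromosome 9, 118478212 to 118486132), had 4.53, 7.70 and 5.55 RPM in DT mice against 4.33, 7.78 and 9.33 RPM in PBS mice. DT mouse 2 was level with PBS mouse 2, and PBS mouse 1 was the lowest of all. The log2 fold change was -0.21 ± 0.26 (-0.81 to 0.40; adjusted p = 0.879). An antisense gene annotated in GENCODE M21 shares 118 of the 4155 exonic bases of Eomes, and whether reads were counted by strand is not given in the sources used here.

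Among the granule genes, perforin differed most and the granzymes least. Prf1 (ENSMUSG00000037202, chromosome 10, 61297836 to 61304263) had 10.4, 15.7 and 10.7 RPM in DT mice and 11.6, 19.5 and 23.5 RPM in PBS mice. PBS mouse 1 lay among the DT mice and the other PBS mice above all 3 of them. The fold change was -0.50 ± 0.25 on the log2 scale (-1.07 to 0.07; adjusted p = 0.601), and leaving out 1 mouse at a time moved it between -0.77 and -0.30. Gzma, which encodes the tryptase of the granules (ENSMUSG00000023132, chromosome 13, 113093825 to 113100979), had 7.93, 9.82 and 9.57 RPM in DT mice against 8.32, 10.8 and 11.6 RPM in PBS mice. Gzmb, whose protease cuts after aspartate and activates caspases (ENSMUSG00000015437, chromosome 14, 56258856 to 56262260), had 7.16, 9.51 and 9.19 RPM in DT mice against 7.77, 9.97 and 10.4 RPM in PBS mice. Both granzymes were lowest in DT mouse 1 and highest in PBS mouse 3, and highest over lowest was only 1.47-fold for Gzma and 1.45-fold for Gzmb. Their log2 fold changes were -0.15 ± 0.15 and -0.11 ± 0.15 (limma adjusted p = 0.831 and 0.892). Nkg7, a granule membrane protein that aids degranulation (ENSMUSG00000004612, chromosome 7, 43437073 to 43438246), had 7.10, 8.12 and 8.05 RPM in DT mice against 7.93, 9.49 and 9.80 RPM in PBS mice, a difference of -0.20 ± 0.12 (adjusted p = 0.695).

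Of the 10 genes, 0 passed an adjusted p of 0.05 in either direction with limma, 0 had an unadjusted p under 0.05, and limma-voom on recovered reads gave 0 and 0 as well. Over all 16708 genes tested, 0.00599% were called lower and 0.275% higher in DT, and 4.03% were lower and 5.0% higher at an unadjusted p under 0.05. The 95% intervals of all 10 included 0, and at their lower ends they reached from -0.46 for Gzmb to -1.07 for Prf1, so a fall of these sizes is within the intervals. The median log2 fold change of the 10 was -0.25, beside 0.00 for all genes tested, of which 49.6% had a negative value. The groups did not overlap in 0 of the 10 genes, against 6.79% of all genes tested in the lower direction and 7.65% in the higher.

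PBS mouse 1 was the lowest PBS mouse for all 10 genes, so leaving it out had to enlarge every difference, and the values without it are a description that supports nothing by itself. The median log2 fold change was then -0.48, beside 0.02 for all genes tested. Leaving out another mouse gave medians of -0.15 without PBS mouse 3, -0.18 without PBS mouse 2, -0.16 without DT mouse 1, -0.36 without DT mouse 2 and -0.21 without DT mouse 3, and Eomes was at -0.0072 without PBS mouse 3. Without PBS mouse 1, 9 of the 10 genes were lower in all 3 DT mice than in PBS mice 2 and 3, against 11.4% of all genes tested. An unadjusted p under 0.05 was reached by 6 of the 10 genes, against 4.16% of all genes in that direction. Still 0 of the 10 passed the adjusted threshold, which 0.0599% of all genes passed in that direction. The nearest were Klrk1 at -0.60 ± 0.12 (adjusted p = 0.132) and Prf1 at -0.77 ± 0.18 (adjusted p = 0.207).

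**Figure D2:**
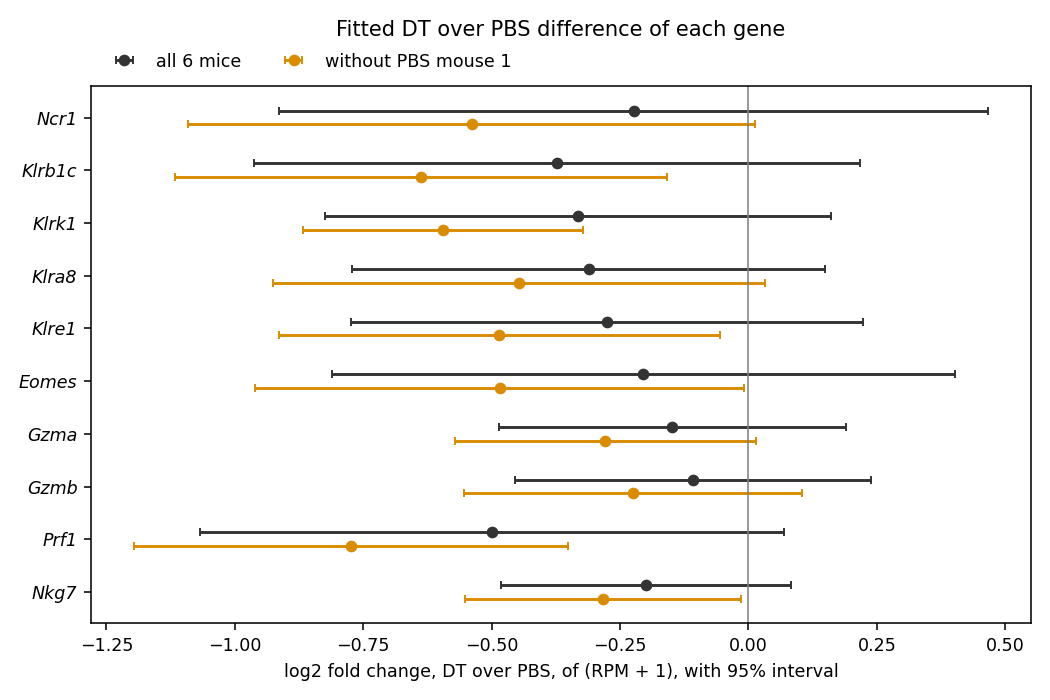
Fitted log2 fold change of DT over PBS on the log2(RPM + 1) scale (horizontal axis) for each gene, with 95% intervals, from all 6 mice (black) and without PBS mouse 1 (orange). All 10 black intervals include 0. The orange points lie further left, from -0.22 for Gzmb to -0.77 for Prf1.

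The 10 genes moved largely together from mouse to mouse. Each was centred on its own mean over the 6 mice on the log2(RPM + 1) scale, and the mean of the 10 was then -0.31, 0.07 and -0.15 in DT mice 1, 2 and 3, and -0.28, 0.28 and 0.40 in PBS mice 1, 2 and 3. All 10 were below their own mean in DT mouse 1 and in PBS mouse 1, and all 10 were above it in PBS mice 2 and 3. Within the DT group, mouse 2 was the highest for 9 of the 10 genes, Klrk1 being the exception. PBS mouse 3 was the highest of all 6 mice for 8 genes and PBS mouse 2 for Klra8 and Klre1. Highest over lowest mouse was 1.38-fold for Nkg7 to 2.80-fold for Ncr1, with a median of 2.20-fold, beside 1.22-fold for all genes tested. These medians were not matched for read number, and the 10 genes had 23 to 448 reads per library. Counting error alone widens this ratio in genes with few reads.

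Ratios within a library show how the genes stood to each other whatever the total. Eomes over Ncr1 was 0.51 ± 0.01 on the log2 scale in DT mice, against 0.49 ± 0.21 in PBS mice (SD, n = 3 each). Ncr1 in DT mouse 1 rests on 53 reads, with an exact Poisson 95% interval of 2.37 to 4.13 RPM. The SD of 0.01 is narrower than such counting error, so the spreads of the groups are not compared. Perforin over the mean of the other 9 genes was 1.33 ± 0.15 in DT mice and 1.57 ± 0.12 in PBS mice, a difference of -0.24 (exact permutation p = 0.2). Gzmb leaned the other way, with 0.78 ± 0.13 in DT mice and 0.56 ± 0.23 in PBS mice, a difference of 0.22 over all 6 mice (exact permutation p = 0.3). Without PBS mouse 1 it was 0.35, with no test. Gzma did so too, by 0.17 with all mice and 0.29 without PBS mouse 1. Ratios against the mean of the others balance out over the genes within each mouse. A lower ratio for perforin thus goes with higher ratios elsewhere, and the opposite lean is partly set by the measure. None of 19 such ratios, against Ncr1 or against the mean of the others, separated the groups: 2-sided exact permutation p ran from 0.2 to 1 and adjusted p from 0.894 to 1, where the smallest p that 3 against 3 mice allow is 0.1.

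Per kilobase of exon the granule genes led. In DT mice the order was Gzma (9.06 ± 1.02 RPM per kb), Nkg7 (8.49 ± 0.63), Gzmb (6.001 ± 0.89), Prf1 (4.76 ± 1.15), Ncr1 (2.70 ± 0.75), Klrb1c (1.69 ± 0.43), Klra8 (1.61 ± 0.50), Eomes (1.43 ± 0.39), Klrk1 (0.88 ± 0.05) and Klre1 (0.49 ± 0.08; SD, n = 3). In PBS mice Gzma (10.2 ± 1.72) and Nkg7 (9.93 ± 1.09) led again, and Prf1 (7.04 ± 2.33) stood next to Gzmb (6.52 ± 0.98). Since the genes share their libraries, neighbours were also compared within each mouse. Gzma stood above Nkg7 in 5 of 6 mice and Klrb1c above Klra8 in 2 of 6, so these neighbours had no constant order. Gzmb stood above Prf1 in 3 of 3 DT mice and in 1 of 3 PBS mice. Klra8 stood above Eomes in 4 of 6 mice, whereas Klrb1c stood above Eomes in 6 of 6.

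**Figure D3:**
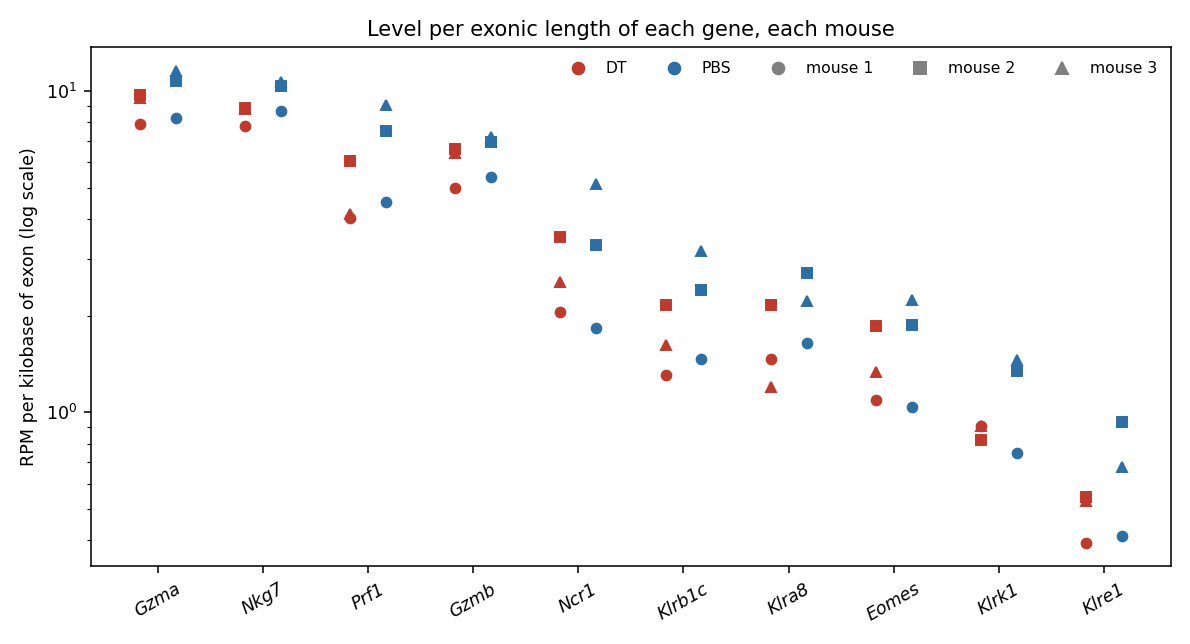
Level of each gene in RPM per kilobase of exon (vertical axis, log scale) in each mouse, DT in red and PBS in blue, with genes ordered by their PBS mean and symbols for the mouse number. The granule genes Gzma, Nkg7, Prf1 and Gzmb lie above the receptors and Eomes in the means of both groups.

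Of the further NK cell receptors 16 had negative and 8 positive fold changes, and 0 of 24 tested passed (limma; 1 higher and 5 lower at an unadjusted p under 0.05, and 6 in both directions with limma-voom). Their median log2 fold change was -0.13, and -0.23 without PBS mouse 1. Klrd1, the CD94 chain that pairs with the NKG2 receptors, had 2.50, 2.92 and 2.94 RPM in DT mice against 3.33, 6.02 and 5.97 RPM in PBS mice. All 3 DT values lay below all PBS values, and the difference was -0.66 ± 0.20 (log2; adjusted p = 0.412, or 0.0645 without PBS mouse 1); it was named after its values were seen. Of the Ly49 copies that lie beside Klra8, the activating receptor gene Klra4 had 1.79, 0.90 and 0.98 RPM in DT mice and 1.89, 2.40 and 2.04 RPM in PBS mice. Klra9 had 0.66, 0.90 and 1.09 RPM in DT mice and 1.05, 2.19 and 2.41 RPM in PBS mice, and Klra7 and Klra3 stayed between 0.60 and 2.36 RPM. Klra17 had 0.33 to 0.54 RPM in DT mice and 0.55 to 0.75 RPM in PBS mice. The copies Klra1, Klra5 and Klra10 were at 0.84 RPM or less in every mouse. The most abundant of the list, the Fc receptor Fcgr3 and the integrin Itga2, which other lung cells also transcribe, differed by 0.14 ± 0.09 and -0.01 ± 0.09. On the positive side, and also named after their values were seen, were Fcgr4 (0.35 ± 0.13; adjusted p = 0.487), Klrb1f (0.27 ± 0.17; adjusted p = 0.705) and Cd244 (0.25 ± 0.22; adjusted p = 0.802).

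Receptor adaptors and signalling genes did not pass (16 tested, 0 called by limma, median -0.01; 1 at an unadjusted p under 0.05, and 1 with limma-voom). The kinases Syk (0.11 ± 0.10) and Fyn (-0.14 ± 0.06) were the most abundant. Of the other granzymes and effectors, 9 of 16 were tested and 0 were called (1 lower at an unadjusted p under 0.05, and 1 with limma-voom; median -0.12). The protease Ctsc, which activates granzymes, differed by 0.09 ± 0.09, and Tnfsf10, the death ligand TRAIL, was at 146, 140 and 158 RPM in DT mice against 182, 159 and 169 RPM in PBS mice (-0.20 ± 0.06; adjusted p = 0.420). Gzmm stood at 3.70 to 5.58 RPM in DT mice and 4.51 to 5.16 RPM in PBS mice. Gzmk had 0.36 to 0.60 RPM in DT mice and 0.28 to 0.53 RPM in PBS mice, and the rest of the granzyme cluster next to Gzmb (Gzmc, Gzmd, Gzme, Gzmf, Gzmg, Gzmn) was at 0.16 RPM or less in every mouse, which is at most 3 reads.

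Granule exocytosis genes did not pass (11 tested, 0 called by limma; 1 higher at an unadjusted p under 0.05, and 1 with limma-voom). Their median was 0.12, or 0.07 without PBS mouse 1, and 10 of 11 were positive, where 49.6% of all genes tested were negative. Dock8 had 110, 101 and 100 RPM in DT mice and 76.7, 104 and 108 RPM in PBS mice (0.12 ± 0.12, and -0.03 without PBS mouse 1). Lyst, which shapes lytic granules, had 108, 106 and 108 RPM in DT mice and 59.4, 92.1 and 103 RPM in PBS mice (0.37 ± 0.17; adjusted p = 0.565, and 0.14 without PBS mouse 1). Most cells of blood origin carry this machinery.

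Among 173 tested genes on these lists outside the 10, 2 passed, and both rose in DT. Of all genes tested, 0.275% were called higher and 0.00599% lower. Serpinb9b, a relative of the granzyme B inhibitor Serpinb9, had 14.2, 11.5 and 13.5 RPM in DT mice against 2.05, 2.93 and 3.46 RPM in PBS mice, which is 1.90 ± 0.17 higher on the log2 scale (limma adjusted p = 0.0058). The groups did not overlap, and PBS mouse 1 was the lowest of all. Without DT mouse 1 the difference was 1.84 and the call was lost (limma adjusted p = 0.0876). Serpinb9 itself stood at 117, 101 and 106 RPM in DT mice and 104, 99.9 and 102 RPM in PBS mice (0.08 ± 0.06), and of 10 inhibitor genes listed 5 had enough reads for a test. Nfil3, a factor needed for NK cell development that is also part of the circadian clock, had 34.8, 34.5 and 37.9 RPM in DT mice against 23.2, 17.9 and 21.9 RPM in PBS mice (0.75 ± 0.10; adjusted p = 0.0279). Here too no DT value fell in the PBS range. The Nfil3 difference was of like size at 0.77 without DT mouse 1, 0.71 without DT mouse 3 and 0.78 without PBS mouse 3, but the call was lost in each (limma adjusted p = 0.194, 0.141 and 0.0528). The other 14 NK cell transcription factors did not pass. Of all 15, 8 were negative and 7 positive, with a median of -0.01. At an unadjusted p under 0.05, 1 was higher and 2 lower with limma, and 3 reached it with limma-voom. Prdm1 had 24.9, 26.1 and 29.3 RPM in DT mice against 33.1, 34.4 and 37.1 RPM in PBS mice (-0.37 ± 0.08, limma adjusted p = 0.179). Tbx21, which encodes T-bet, had 4.41, 4.83 and 5.71 RPM in DT mice against 5.49, 8.58 and 7.70 RPM in PBS mice (-0.45 ± 0.17, limma adjusted p = 0.511). Runx3 had 29.0, 22.6 and 24.9 RPM in DT mice against 20.2, 27.6 and 29.2 RPM in PBS mice (0.00 ± 0.14). Prdm1, Tbx21 and Runx3 were named after their values were seen.

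The cytokines that sustain NK cells and their receptors did not pass (17 tested, 0 called by limma, 1 higher and 1 lower at an unadjusted p under 0.05, 2 with limma-voom, median -0.06). Il12b, the shared chain of interleukin-12 and interleukin-23, had 0.84, 0.69 and 0.22 RPM in DT mice against 0.89, 2.98 and 3.46 RPM in PBS mice. PBS mouse 1 was close to the DT mice, as for the 10 genes, and the log2 fold change was -1.05 ± 0.33 (adjusted p = 0.412, or 0.0593 without PBS mouse 1). Il15 had 8.47, 8.23 and 9.52 RPM in DT mice and 9.93, 8.95 and 11.1 RPM in PBS mice. Its difference was -0.17 ± 0.12 (95% interval -0.45 to 0.10, limma adjusted p = 0.731). The presenting receptor Il15ra had 18.1, 21.6 and 20.5 RPM in DT mice and 22.6, 23.2 and 22.1 RPM in PBS mice (-0.17 ± 0.08, limma adjusted p = 0.597). All 3 were chosen after seeing their values. The most abundant, Il18r1 and Tgfb1, differed by 0.17 ± 0.06 and 0.01 ± 0.06. Chemokines and trafficking receptors (13 tested, 0 called, 2 higher and 3 lower at an unadjusted p under 0.05, 6 with limma-voom) had a median of -0.10, with S1pr1 at 0.12 ± 0.06 and the endothelial chemokine Cx3cl1 at -0.08 ± 0.04. Ligands of NK cell receptors on other cells had a median of -0.01 (13 tested, 0 called, 0 at an unadjusted p under 0.05 with limma and 0 with limma-voom), among them the class I gene H2-D1 (0.00 ± 0.05) and Pvrl2, the gene of nectin-2 (0.10 ± 0.07).

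Markers of other cells that could share these transcripts were read in the same libraries. The T cell markers with enough reads, 11 of 14, summed to 106 to 126 RPM in DT mice and 101 to 147 RPM in PBS mice, with a median log2 fold change of -0.08 and 0 called (limma; 0 at an unadjusted p under 0.05, and 0 with limma-voom); Bcl11b and Cd4 differed by 0.08 ± 0.19 and 0.01 ± 0.12. The cytotoxic T cell genes Cd8a and Cd8b1 were named after their values were seen. In both, as in 9 of the 10 genes, PBS mice 2 and 3 lay above the 4 others. Within the DT group both were lowest in mouse 2, the highest DT mouse for 9 of the 10 genes. Cd8a had 10.1, 7.91 and 11.6 RPM in DT mice against 8.82, 12.7 and 12.7 RPM in PBS mice (-0.19 ± 0.18, or -0.35 without PBS mouse 1). Cd8b1 had 7.04, 5.47 and 7.78 RPM in DT mice against 6.49, 8.10 and 9.12 RPM in PBS mice (-0.20 ± 0.16, or -0.32 without PBS mouse 1). Cd3e was at 10.9 to 13.3 RPM in DT mice and 12.04 to 15.9 RPM in PBS mice, so T cells were present in both groups. Innate lymphoid markers showed a median of -0.01 for type 1 (7 tested; Itga1 at -0.01 ± 0.04) and -0.09 for type 2 (8 of 10 tested; Rora at -0.06 ± 0.06 and Gata3 at -0.20 ± 0.09), with 0 called in each (limma; 2 lower and 0 at an unadjusted p under 0.05, and 2 and 0 with limma-voom). Gamma-delta T and NKT markers had only 4 of 8 genes with enough reads (median -0.45, or -0.24 without PBS mouse 1). Zbtb16 and Sox13 differed by 0.02 ± 0.13 and -0.04 ± 0.05. Cd163l1, at 10.5 RPM in PBS mouse 1, differed by -1.22 ± 0.56 and Blk, also on the B cell list, by -0.86 ± 0.19. Both lay lower in all DT mice than in all PBS mice, and Blk was named after its values were seen. Of the 4 genes 0 were called (limma, with 1 lower at an unadjusted p under 0.05, and 1 with limma-voom). Over the 6 mice Zbtb16, Sox13, Itga1, Rora and Gata3 averaged 108, 99.6, 128, 168 and 38.4 RPM, beside 13.1 RPM for Cd3e. How much of them came from lymphocytes was not tested. Mast cell and basophil markers had 6 of 10 tested and a median of 0.51, or 0.28 without PBS mouse 1. Kit and Cma1, the most abundant, differed by -0.17 ± 0.16 and 0.06 ± 0.28. The rest, named after their values were seen, were Mcpt4 at 0.47, Cpa3 at 0.54, Mcpt8 at 0.64 and Tpsb2 at 0.89. Of this list 0 were called (limma, with 0 at an unadjusted p under 0.05, and 0 with limma-voom).

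The means of the B cell and cDC markers, like that of the 10 genes, were higher in PBS mice 2 and 3 than in the other mice. The 10 B cell markers summed to 99.8 to 141 RPM in DT mice, against 111 in PBS mouse 1 and 160 and 189 RPM in PBS mice 2 and 3, with 10 of 10 negative, a median of -0.33, or -0.61 without PBS mouse 1, and 0 called (limma; 3 lower at an unadjusted p under 0.05, and 3 with limma-voom); Cd22 and Fcer2a differed by -0.10 ± 0.19 and -0.11 ± 0.20. The 12 cDC markers summed to 241 to 274 RPM in DT mice, against 265 in PBS mouse 1 and 337 and 357 RPM in PBS mice 2 and 3 (median -0.77, or -1.15 without PBS mouse 1, 0 called by limma, 7 lower at an unadjusted p under 0.05, and 5 with limma-voom). Zbtb46 (-0.22 ± 0.07) and Tlr3 (-0.03 ± 0.06) were their most abundant. Together with Itgax they weighed most in the sums. The values of Zbtb46, Tlr3 and Itgax were 108, 67.7 and 41.9 RPM in PBS mouse 1, and 89.1, 70.9 and 64.2 RPM in PBS mouse 3. Without PBS mouse 1, Cd209a and Cd207 of this list passed (limma adjusted p = 0.00867 and 0.0266). With all mice neither passed (limma adjusted p = 0.412 and 0.213). PBS mouse 1 was singled out by its low cDC markers, so passing without it supports nothing by itself. Within the DT group the order was not shared. The means of the B cell and cDC lists were highest in mouse 1, where the mean of the 10 genes was lowest. The part of CD8 T cells, B cells, cDC or PBS mouse 1 in the values of the 10 genes was not tested.

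**Figure D4:**
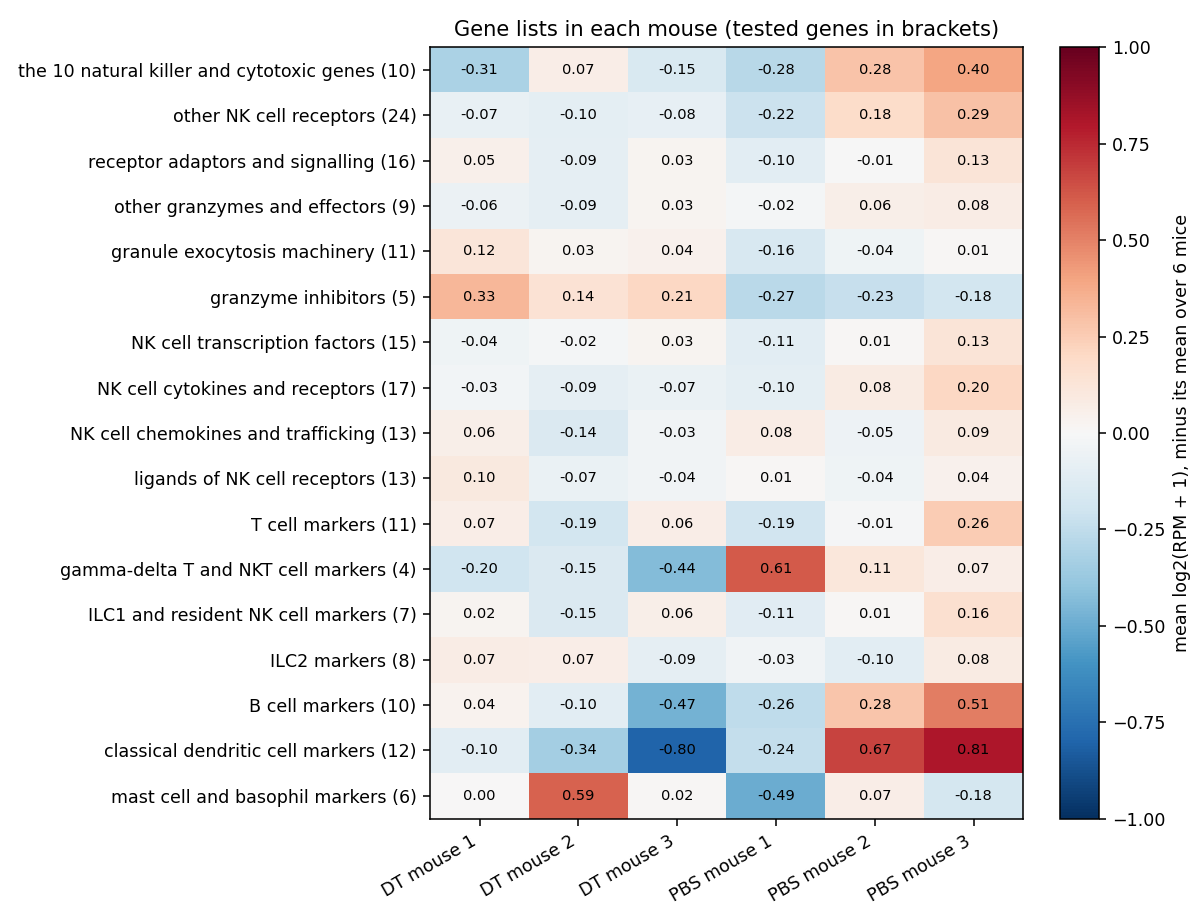
Mean log2(RPM + 1) of the tested genes of each list in each mouse, minus the list's mean over the 6 mice; columns are the 3 DT mice, then the 3 PBS mice, and colour runs from blue (lower) to red (higher). The 10 genes, further NK receptors, B cell and cDC markers share high values in PBS mice 2 and 3. In PBS mouse 1 their values are low. The list of NK cell cytokines and receptors has the same order at smaller size, with -0.10 in PBS mouse 1 and 0.08 and 0.20 in PBS mice 2 and 3. The mean of the 5 tested granzyme inhibitors is higher in the 3 DT mice. Among these, Serpinb9b differed by 1.90 (log2, DT over PBS) and the other genes by only 0.06 to 0.13.

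The genes whose pattern over the 6 libraries was most like the mean of the 10 were not NK cell genes. They were Vldlr, Lztfl1, Prkab2, Haao, Ralgps2 and Adcy5, with Pearson r between 0.980 and 0.995 over 6 libraries that share 1 preparation protocol and differ little in depth. A value of 0.9 or more was reached by 153 other genes, 0.916% of those tested, and one of -0.9 or less by 310, or 1.86%, so likeness over 6 libraries is a description only. Vldlr moved within a narrow range, at 133, 140 and 135 RPM in DT mice and 132, 145 and 148 RPM in PBS mice. Haao moved more, with 2.15, 3.03 and 2.34 RPM in DT mice and 1.997, 3.78 and 4.61 RPM in PBS mice. Among the 10 genes themselves, r with the mean of the other 9 ran from 0.779 for Klra8 to 0.980 for Klrb1c.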

How the data were processed

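The authors deposited reads-per-million values (RPM) on a log2 scale, 1 column per mouse, for 25965 genes with Ensembl identifiers and mm10 positions. The submitters' processing notes name FastQC, Trimmomatic and mm10. Which aligner and counter were used, and whether strand was read, is not given in the sources used here. Per the labels' protocols, whole-lung RNA was extracted and libraries made with an mRNA kit. Once unlogged, 100% of the values over the minimum came out as whole reads (tolerance 0.1%), which gave reads and depth; the lowest value equals 0.9 of a read and was set to 0. Group and number came from sample titles.

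Genes with at least 3 libraries at 0.538 RPM (10 reads at median depth) and 15 reads in all were tested: 16708, with limma 3.58.1 in R 4.3.3 (mean-variance trend, log2(RPM + 1), 2-sided, Benjamini-Hochberg over all genes, threshold 0.05). Fold changes on this scale understate those of low genes. The script was checked on simulated data. Ratios used exact permutation tests (SciPy 1.17.1). Exonic lengths, overlaps and shared 50-base stretches are from GENCODE M21. Plots were drawn with matplotlib 3.10.9. The read-count sheet held positions only and another sheet repeated group means; neither was used.

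The members and the gene lists were chosen with earlier results of these data known. Named are all 10 members, list genes past the threshold or otherwise the most abundant 2 of a list, the Klra copies and the 6 genes of most similar pattern; others are said to be named after their values were seen. Xcr1, Cd3e, Cd209a, Cd207, Serpinb9 and the other granzymes were also named with their values known. Alternatives were median-of-ratios and upper-quartile scaling, no filter or 1 RPM, pseudocounts of 0.25 and 2, limma-voom, a replicate block, and leaving out each mouse.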

Additional observations from a re-analysis of the deposited data

How the results depend on the processing

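None of the 10 genes passed the threshold under any of the 14 alternatives, where adjusted p was 0.132 or more, and 138 of 140 fold changes kept their sign. The exceptions were Gzmb without DT mouse 1 (0.0063; range -0.22 to 0.0063 with each mouse left out) and Ncr1 without PBS mouse 3 (0.0706; range -0.54 to 0.0706). With each mouse left out, 0 to 9 of the 10 had groups that did not overlap, 9 without PBS mouse 1 and 2 without DT mouse 2, and 0 to 4 other list genes passed, in place of 2. With the replicate block 0 other list genes passed (Serpinb9b 1.90, adjusted p = 0.0763; Nfil3 0.75, adjusted p = 0.111). Same-numbered mice deviated together by correlations of 0.084, 0.268 and -0.1 over 16708 genes, so the numbers were not taken as pairs. Calls over all genes numbered 47, and 8 with the replicate block, 0 without DT mouse 1, 14 without DT mouse 3 and 141 without DT mouse 2; the cause was not tested. Reads per gene, 23 to 448 per library, limit what can be seen in Klre1 and Klra8.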

Other observations

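A few immune genes on the fixed lists stood apart in single mice; they were named after their values were seen. Cd163l1, a scavenger receptor of gamma-delta T cells, had 0.84, 1.06 and 0.33 RPM in DT mice against 10.5, 1.39 and 1.31 RPM in PBS mice, so PBS mouse 1 alone was high, while the 10 natural killer and cytotoxic genes were low in it. Cxcr6, a chemokine receptor of resident lymphocytes, was also highest in PBS mouse 1, with 7.16, 3.72 and 6.36 RPM in DT mice and 13.1, 7.25 and 8.23 RPM in PBS mice. The connective-tissue mast cell tryptase Tpsb2 had 2.45, 5.74 and 0.98 RPM in DT mice and 0.11, 2.45 and 0.89 RPM in PBS mice, and DT mouse 2 was the highest. None of these passed over all genes (limma adjusted p = 0.568 for Cd163l1, 0.529 for Cxcr6 and 0.671 for Tpsb2).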
